A study of Mus musculus with 8 samples.

Results

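Actin filaments, the proteins that cross-link, cap and anchor them, the contractile proteins of smooth muscle and the filament and membrane proteins that accompany them form a module of 38 listed genes. Members were chosen by name and role, and each gene was read from its probe set of highest mean log2 intensity among the probe sets annotated with that symbol alone. Of the 38 genes, 37 had such a probe set among the 18193 genes that did, and all 37 passed the filter on low values. By mean log2, 31 of the 37 lay at or above the 75th percentile of all probe sets. The shares of all probe sets given below thus come from a set that is mostly dimmer than the members. S100a11, a calcium-binding partner of annexins, is covered only by a probe set shared with other symbols and has no value here.

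The arrays measured transcript levels in mouse embryonic stem cells. J1 is a wild-type embryonic stem cell line, and the second genotype is labelled Rex-1 knockout, Rex-1 being the zinc finger protein encoded by Zfp42. Each genotype was grown with leukemia inhibitory factor (LIF), the cytokine that holds these cells undifferentiated, or without it, which gives 4 groups of 2 arrays. All cells were grown in serum on gelatin-coated dishes. A time of 12 hours without LIF is stated in an extraction text shared word for word by the 8 arrays. For the knockout arrays titled as lacking LIF, the growth text mentions added LIF, and group assignment here follows the title and the treatment text. The labels name J1 as the source of the knockout cells and do not say whether they are 1 clone. In each group the title of 1 array carries the suffix r. What it marks is not given, and the series text calls the 2 arrays biological replicates. They are called here the first array and the array of suffix r. In comparisons of the 4 groups, p-values here reflect only how far the 2 arrays of a group differ, which may be technical. In comparisons within or between suffixes, they reflect how far the difference between arrays with and without LIF varies over genotype and suffix. Those p-values do not measure the spread between replicates. Where 2 values are given for a genotype and suffix, the array with LIF comes before the one without.

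Actin exists as free monomers and as filaments. Filaments are stabilised by tropomyosins, bundled by alpha-actinins and filamins, pulled on by myosin and tied to the substrate at focal adhesions by vinculin, talin and zyxin. Free actin holds back a cofactor of serum response factor (SRF), so that filament assembly is coupled to transcription of actin, calponin and related genes through a DNA element called the CArG box. In embryonic stem cells this machinery bears on colony shape and adhesion, and several members, such as the keratins 8, 18 and 19 and the smooth muscle genes, are known from differentiating or spreading cells.

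Median intensities ran from 114.2 to 143.5 over the arrays. The 3′ and 5′ control probe sets of Actb differed by 0.24 to 0.35 log2 units. Those of Gapdh differed by -0.35 to -0.30 in the first arrays and by -0.46 to -0.39 in the arrays of suffix r. Zfp42, the targeted gene, read 14.03 to 14.51 on the log2 scale in all 8 arrays, those labelled knockout included. Where its probes lie relative to the deletion is not given, so the genotype is called here as labelled. The 12 embryonic stem cell markers had a mean log2 of 12.49 to 12.92 in every array, and all 12 were above a log2 of 8 throughout. Of 12 smooth and cardiac muscle markers, 2 to 3 reached a log2 of 8 in each array, among them Smtn and Myh6, and the highest value was 9.31. Myh11 and Lmod1 had log2 values of 2.21 to 6.17 and 3.07 to 4.55.

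Most members read differently in the 2 arrays of each group. Of the 37 genes, 29 read lower in the array of suffix r in all 4 groups, against 11% of all probe sets. The cytoplasmic actins Actb and Actg1 read higher in all 4, which is 2 members against 16.4% of all probe sets. The array of suffix r minus the first array, averaged over the genotypes, had a median of -0.91 log2 units over the members, from -4.36 to 0.48, against 0.08 over all 43439 probe sets tested. A difference of 1 log2 unit is a 2-fold difference in intensity. The median was -1.11 in J1, with 33 of 37 below zero, and -0.54 in the arrays labelled knockout, also with 33 below zero. In bulk samples, fewer cells of a type and less RNA per cell cannot be told apart.

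In the first arrays the knockout-labelled cells also read lower than J1. The knockout-labelled arrays minus J1 had a median of -0.70 among the first arrays, with 36 of 37 members lower, and -0.25 among the arrays of suffix r, with 26 of 37 lower. Both first J1 arrays lay above the other 6 arrays for 28 of the 37 members (75.7%), against 5.14% of all probe sets. The module was therefore high in 2 arrays, the first J1 arrays with and without LIF, with the first knockout-labelled arrays next and the arrays of suffix r lowest. The members had a mean log2 of 11.43 and 11.37 in the first J1 arrays, and 10.48 in both first knockout-labelled arrays. In the arrays of suffix r it was 10.09 and 9.85 in J1 and 9.86 and 9.78 in the knockout-labelled cells.

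**Figure D1:**
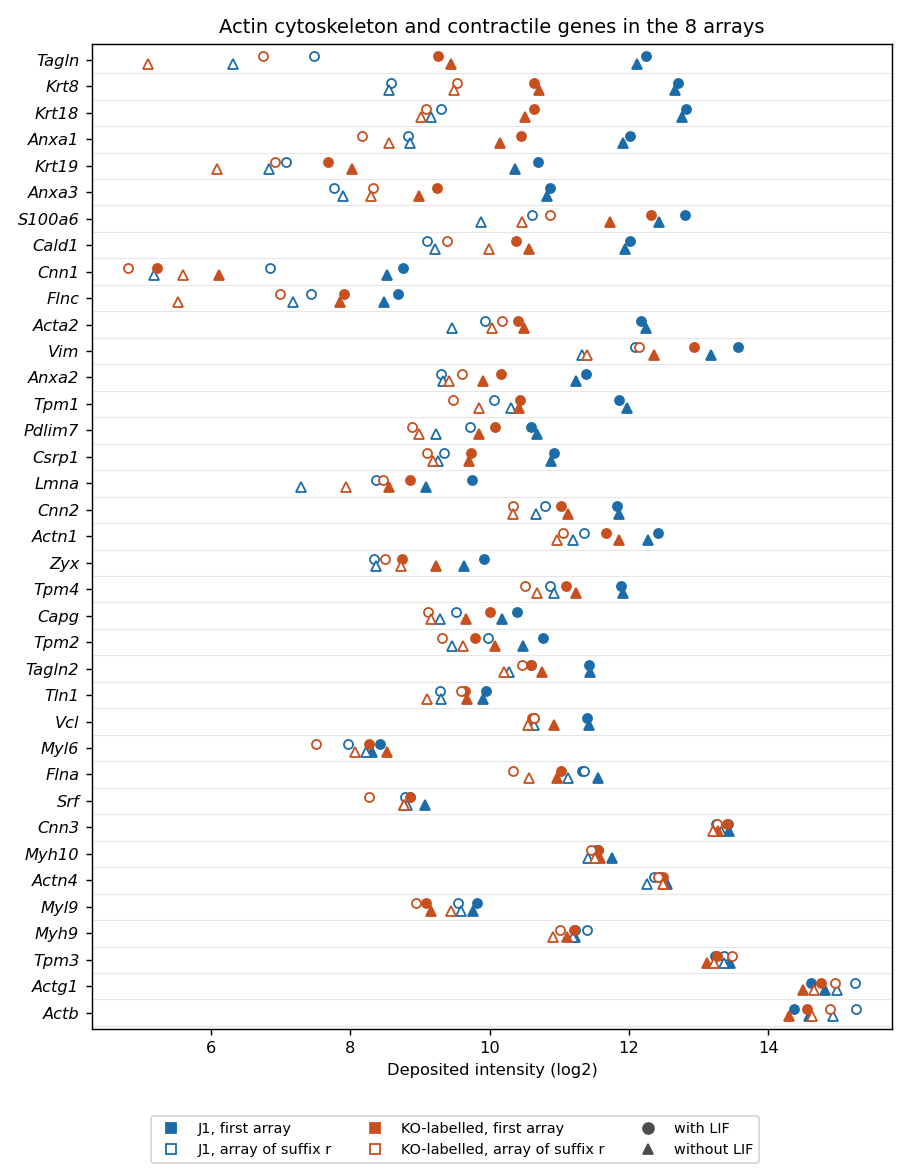
Log2 intensity (x axis) of the 37 measured genes (y axis, ordered by the array of suffix r minus the first array) in each of the 8 arrays. Blue is J1 and orange the knockout-labelled cells, filled symbols are first arrays and open symbols arrays of suffix r, circles are with LIF and triangles without. For 28 genes the 2 filled blue symbols lie to the right of the other 6.

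No member passed the planned limma test at an adjusted p under 0.05 in any of the 13 contrasts, and neither did any of the 43439 probe sets (0%). With 2 arrays a group, that fit had 4 residual degrees of freedom, or 3 when the suffix entered. The smallest adjusted p among the members was 0.0695, for Krt8 and Krt18 in the array of suffix r minus the first array. At an unadjusted p under 0.05, 27 members were lower in the arrays of suffix r against 7.02% of all probe sets, and 1, Actb, was higher against 10.2%. Within J1 the counts were 26 lower against 4.95% and 1 higher against 5.28%. Within the knockout-labelled arrays they were 19 lower against 5.57% and none, 0, higher against 8.46%. The 4 first arrays lay above all 4 arrays of suffix r for 24 members (64.9%) against 5.2% of all probe sets, and the reverse held for Actb against 7.15%.

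A variance prior that follows the mean intensity and is robust to outlying probe sets, a listed alternative, did make calls at an adjusted p under 0.05. It called 28 members in the array of suffix r minus the first array, against 8.57% of all probe sets, of which 26 fell and Actb and Actg1 rose. It called 24 in J1, against 2.88%, and 19 in the knockout-labelled arrays, against 3.83%. Calls named below under the trended prior come from this setting. A filter at a mean log2 of at least 10, with the planned prior, was tried after the data were seen. Of the probe sets it kept, 43.9% were called in the array of suffix r minus the first array, 16 members among them. The part of intensity in the members' counts was not tested.

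Among the actins, the cytoplasmic and the smooth muscle genes lay on opposite sides. Actb, the beta-actin of all cells, read 21130 and 24520 in the first J1 arrays, 39360 and 31310 in the J1 arrays of suffix r, 23940 and 20170 in the first knockout-labelled arrays and 30220 and 25370 in those of suffix r. Every array of suffix r was above every first array, and the averaged difference was 0.48 ± 0.15 (SE; limma adjusted p = 0.25). The 3′ control probe set of Actb, left out of the fit, was ordered the same way, at 14.48 to 14.79 in the first arrays and 14.83 to 15.5 in those of suffix r. That of Gapdh also read higher in the array of suffix r of every group. It ran from 14.14 to 14.43 in the first arrays and from 14.42 to 14.94 in those of suffix r. Such a rise was therefore not limited to actins. Actg1, the gamma-actin partner of Actb, differed by 0.29 ± 0.15.

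Acta2, the alpha-actin of smooth muscle and of contractile fibroblasts, read 4592 and 4835 in the first J1 arrays and 974 and 704.7 in the J1 arrays of suffix r. In the knockout-labelled cells it read 1350 and 1434, then 1158 and 1044. The first J1 arrays stood far above the rest, and the knockout-labelled arrays lay between the 2 kinds of J1 array. The knockout-labelled cells differed from J1 by -1.76 ± 0.21 in the first arrays and by 0.41 ± 0.21 in those of suffix r. The first was called with the trended prior. Its 2 other, dimmer probe sets gave -1.52 and 0.10 in the arrays of suffix r. The probe set of Acta2 has the suffix _s_at, which marks probes that can match several transcripts; 6 of the 37 probe sets end in _s_at or _x_at.

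The calponin family and caldesmon bind actin filaments and restrain myosin. All 6 members were lower in the arrays of suffix r, with a median of -1.24. Tagln, transgelin or SM22, an early smooth muscle protein, held the widest range of the module, 7.15 log2 units. It read 4833 and 4446 in the first J1 arrays, 614.7 and 698.2 in the first knockout-labelled arrays, 177.5 and 79.66 in the J1 arrays of suffix r and 107.5 and 34.12 in the knockout-labelled ones. These 4 pairs do not overlap apart from the last 2. The array of suffix r minus the first array was -5.28 ± 0.53 in J1 and -3.44 ± 0.53 in the knockout-labelled cells, and the genotypes differed by -2.82 ± 0.53 among first arrays and by -0.97 ± 0.53 among those of suffix r.

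Cnn1, the smooth muscle calponin, read 432.5 and 369.4 in the first J1 arrays and 37.24 and 69.18 in the first knockout-labelled arrays. Those of suffix r gave 115.6 and 36.34 in J1 and 27.97 and 48.51 in the knockout-labelled cells. Only the first J1 arrays and the J1 array of suffix r with LIF were clear of the rest. The genotype difference in the first arrays, -2.98 ± 0.72, was the largest of any member, and it was not called with the trended prior. It rests on low values. The knockout-labelled readings there were below the median intensities of their arrays, 116 with LIF and 119 without. The mean log2 of Cnn1 was the lowest of the members, at percentile 43.3 of all probe sets. Cald1, caldesmon, differed by -1.50 ± 0.22 there and by 0.53 ± 0.22 in the arrays of suffix r, where its 4 other probe sets ran from -0.85 to 0.59. Cnn2 and Tagln2, family members found outside muscle too, differed by -0.77 each in the first arrays, while Cnn3 spanned 0.24 log2 units over all 8 arrays.

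Tropomyosins lie along the filament and set which proteins may bind it. Tpm1 read 3716 and 4012 in the first J1 arrays, 1386 and 1366 in the first knockout-labelled arrays, 1067 and 1273 in the J1 arrays of suffix r and 707.6 and 922.1 in the knockout-labelled ones. J1 was above the knockout-labelled cells within each suffix, by -1.49 ± 0.18 and -0.53 ± 0.18 as knockout minus J1. Tpm2 read 1730 and 1427 in the first J1 arrays and 888.1 and 1077 in the first knockout-labelled arrays, then 1002 and 701.9 against 636.2 and 784.6 in those of suffix r, where the genotypes overlapped. Tpm4 was lower in the arrays of suffix r by -0.79 ± 0.11, and Tpm3 differed by 0.09 ± 0.14.

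Crosslinkers of filaments were split. Flna, filamin A, which joins filaments into networks and links them to membrane receptors, read 2551 and 3003 in the first J1 arrays and 2633 and 2248 in the J1 arrays of suffix r. In the knockout-labelled cells it read 2083 and 1986, then 1292 and 1518. All 4 J1 arrays lay above all 4 knockout-labelled arrays, which held for Flna and for Myl9 among the members, against 1.74% of all probe sets. Averaged over LIF the knockout-labelled cells were lower by -0.62 ± 0.24 in Flna (limma adjusted p = 0.941) and by -0.51 ± 0.17 in Myl9 (0.899). These 2 members were also those with an unadjusted p under 0.05 in that contrast, against 2.21% of all probe sets lower, and 0 members were higher, against 3.06%.

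Flnc, the muscle filamin, read 410.8 and 357.2 in the first J1 arrays, 240.3 and 230.5 in the first knockout-labelled arrays, 172.5 and 143.6 in the J1 arrays of suffix r and 126.9 and 46.06 in the knockout-labelled ones. The 8 arrays fell in that order without overlap of the pairs. Its second probe set differed less between the suffixes, by -0.32 against -1.45. Actn1, an alpha-actinin of stress fibres and adhesions, was lower in the arrays of suffix r by -0.91 ± 0.13. Its other probe sets gave -1.02 and 0.16. Actn4 spanned 0.28 log2 units over all arrays.

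Focal adhesion and LIM domain proteins tie filaments to integrins and shuttle between adhesions and the nucleus. All 5 read lower in the arrays of suffix r, with a median of -0.90, from -1.10 for Pdlim7 to -0.47 for Vcl, vinculin. Csrp1, a LIM protein of smooth muscle, differed between the genotypes by -1.19 ± 0.16 in the first arrays. Zyx, zyxin, which gathers where filaments are under tension, read 972.1 and 794.4 in the first J1 arrays, 427.9 and 598.7 in the first knockout-labelled arrays, 324.5 and 331.1 in the J1 arrays of suffix r and 360 and 425 in the knockout-labelled ones. J1 was the higher genotype in the first arrays and the lower one in those of suffix r. Tln1, talin, differed between the suffixes by -0.48 ± 0.15. Other probe sets gave smaller or no falls between the suffixes for some of these genes. They gave -0.36 and -0.07 for Pdlim7, 0.09 for Vcl and -0.16 and -0.07 for Tln1. Those of Csrp1 and Zyx gave -1.13 and -0.87.

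The myosin chains were split. Myh9 and Myh10, the heavy chains of nonmuscle myosin II, spanned 0.49 and 0.34 log2 units over all 8 arrays, and Myl9 and Myl6 spanned 0.87 and 1.03. Between the suffixes the Myh9 probe set used gave -0.06, and its others gave -0.26, -0.27, -1.49 and -0.55. For Myh10 the values were -0.12 and, for a much dimmer probe set, 0.89. Myl9, the regulatory light chain of smooth muscle and nonmuscle myosin, was between 750.5 and 894.7 in J1 and between 490.3 and 701.5 in the knockout-labelled arrays, with a difference between the suffixes of -0.07 ± 0.15. Myl6, the essential light chain, had 1 probe set of its own and 2 shared with other symbols, which were not used, and differed between the suffixes by -0.45 ± 0.16.

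Keratins, which pair to form the intermediate filaments of simple epithelia, had some of the largest differences. Krt8 read 6655 and 6456 in the first J1 arrays, 1599 and 1658 in the first knockout-labelled arrays, 741.3 and 716 in the knockout-labelled arrays of suffix r and 381.4 and 377.5 in the J1 arrays of suffix r. Its partner Krt18 read 7229 and 6919 in the first J1 arrays and 1580 and 1454 in the first knockout-labelled arrays. In those of suffix r Krt18 read 628.9 and 566.2 in J1 and 544.3 and 516.7 in the knockout-labelled cells. Both genes formed separate pairs in all 4 combinations of genotype and suffix, and the arrays with and without LIF of a pair lay close together.

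The array of suffix r minus the first array was -4.11 ± 0.15 in J1 and -1.16 ± 0.15 in the knockout-labelled cells for Krt8 (limma adjusted p = 0.083 and 0.229), and -3.57 ± 0.15 and -1.52 ± 0.15 for Krt18. Krt18 differed between the genotypes by -2.22 ± 0.15 in the first arrays and by -0.17 ± 0.15 in those of suffix r. Krt8 differed by -2.01 ± 0.15 and by 0.94 ± 0.15, and both Krt8 values were called with the trended prior. The 3 probe sets of Krt8 agreed in the first arrays, at -2.01, -2.06 and -2.68, and disagreed in those of suffix r, at 0.94, -0.13 and -0.83. With all probe sets of the gene averaged, the difference in the arrays of suffix r was -0.01, so a higher Krt8 in knockout-labelled cells there rests on 1 probe set.

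Krt19, a keratin that can pair with keratin 8, read 1652 and 1312 in the first J1 arrays and 204.6 and 258.9 in the first knockout-labelled arrays. It read 135.1 and 113.8 in the J1 arrays of suffix r and 119.9 and 67.75 in the knockout-labelled ones. The first J1 arrays stood far above the rest here too, with a genotype difference of -2.68 ± 0.32 in the first arrays.

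Vim, vimentin, the intermediate filament of mesenchymal cells, read 12150 and 9222 in the first J1 arrays, 7782 and 5264 in the first knockout-labelled arrays, 4322 and 2574 in the J1 arrays of suffix r and 4551 and 2693 in the knockout-labelled ones. Its 3 probe sets gave -1.27, -1.20 and -1.45 between the suffixes. Lmna, which encodes the nuclear lamins A and C, read 860.5 and 546.2 in the first J1 arrays and 459.8 and 375.3 in the first knockout-labelled arrays. In those of suffix r it read 329.8 and 156.8 in J1 and 354.7 and 245.6 in the knockout-labelled cells. For both genes the array with LIF was the higher one of every pair, and the genotypes overlapped in the arrays of suffix r. The 5 Lmna probe sets disagreed between the suffixes, from -1.27 to 1.58.

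Annexins bind membranes in the presence of calcium and several also bind actin. Anxa1 read 4134 and 3835 in the first J1 arrays, 1401 and 1135 in the first knockout-labelled arrays, 451.8 and 460.9 in the J1 arrays of suffix r and 287.5 and 375.6 in the knockout-labelled ones. Anxa3 read 1854 and 1806, 605.9 and 505.5, 217.1 and 237.8 and 322.7 and 313.5 in the same order. The 2 genes shared the order of the first arrays, and in those of suffix r Anxa1 was lower and Anxa3 higher in the knockout-labelled cells. Between the suffixes Anxa1 differed by -2.53 ± 0.16 and Anxa3 by -1.90 ± 0.13 (limma adjusted p = 0.127 for each), and Anxa2 by -1.26 ± 0.12.

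S100a6, calcyclin, a small calcium-binding protein that binds annexins, read 7139 and 5527 in the first J1 arrays and 5083 and 3387 in the first knockout-labelled arrays. The arrays of suffix r gave 1565 and 942.8 in J1 and 1866 and 1419 in the knockout-labelled cells. All first arrays were above all arrays of suffix r, and the array without LIF was the lower one of each pair. Capg, which caps filament ends, was lower in the arrays of suffix r by -0.79 ± 0.13.

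**Figure D2:**
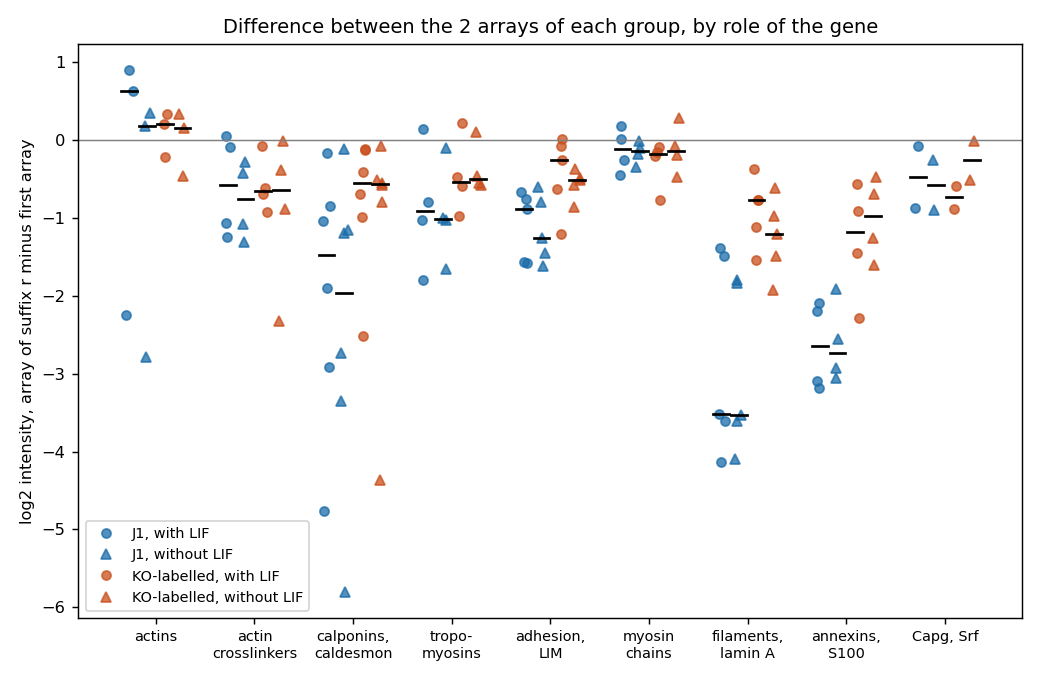
Log2 intensity of the array of suffix r minus the first array of the same group (y axis) for each of the 37 genes, grouped by role (x axis). Each symbol is 1 gene in 1 group, blue for J1 and orange for knockout-labelled cells, circles with LIF and triangles without, and black bars are medians. In J1 the filament and lamin genes and the annexin and S100 genes have the lowest role medians. In the fit over both LIF conditions these are -3.57 and -2.69, while the bars are drawn for each condition apart. The lowest single symbol is Tagln in J1 without LIF, at -5.8, and its fitted difference in J1 is -5.28. The myosin chains have a fitted role median of -0.19 in J1.

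Srf, the transcription factor of the CArG box, read 461.7 and 538 in the first J1 arrays, 440.2 and 448.6 in the J1 arrays of suffix r, 465 and 437.9 in the first knockout-labelled arrays and 309.1 and 436 in those of suffix r. Both J1 arrays were above both knockout-labelled arrays among those of suffix r, and both first J1 arrays were above both J1 arrays of suffix r. Its difference between the suffixes was -0.23 ± 0.15, and the genotypes differed by -0.14 ± 0.21 in the first arrays and -0.28 ± 0.21 in those of suffix r.

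The CArG box was searched, on both strands, in the 250 bases before the start sites of a RefSeq promoter table of build GRCm38.p6. The table held 34 of the 38 members, and 6 of these (17.6%) had a box, against 439 of 27025 genes (1.62%). The 6 are shown because they are the members where the known SRF element stands next to the start; each sequence runs 5′ to 3′ on the gene's strand with the box in capitals.
Actg1, chr11:120348551-120348610, minus strand: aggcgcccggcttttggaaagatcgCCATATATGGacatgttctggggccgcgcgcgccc
Cnn2, chr10:79988519-79988578, plus strand: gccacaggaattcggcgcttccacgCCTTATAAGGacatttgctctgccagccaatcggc
Myl6, chr10:128493025-128493084, minus strand: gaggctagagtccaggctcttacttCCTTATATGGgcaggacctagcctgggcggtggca
Myl9, chr2:156775278-156775337, plus strand: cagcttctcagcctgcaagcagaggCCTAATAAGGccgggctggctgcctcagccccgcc
Srf, chr17:46556190-46556269, minus strand: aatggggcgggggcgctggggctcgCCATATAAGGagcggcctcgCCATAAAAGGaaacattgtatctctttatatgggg
Vcl, chr14:20929148-20929205, plus strand: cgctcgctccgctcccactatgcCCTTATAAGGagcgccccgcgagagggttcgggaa

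The boxes start between 50 and 227 bases before the start site, and Srf has 2 of them, 62 and 82 bases before it. Between the suffixes the 6 genes had a median difference of -0.34, from -0.93 for Cnn2 to 0.29 for Actg1. The 27 measured members with a promoter in the table and no box had a median of -1.04, from -2.64 to 0.09. Actb, Tagln, Krt19 and Anxa3, whose promoters the table does not hold, ran from -4.36 to 0.48. Members with and without the letters of a box in this window thus overlapped, and a missing match says only that these letters are not in the window.

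Genotype was compared next within each suffix. The comparison in the first arrays shares the first J1 arrays with the suffix comparison in J1, so their values are not independent. The fit was made with LIF as a term, so that 2 arrays of a genotype enter in each suffix, 1 with and 1 without LIF. In the first arrays 23 members had an unadjusted p under 0.05 and were lower in the knockout-labelled cells, against 2.94% of all probe sets. On the higher side there were 0 members, against 2.47%. The trended prior called 15 members there, against 0.279% of all probe sets, and all 15 fell: Acta2, Tagln, Tagln2, Cnn2, Cald1, Tpm1, Tpm4, Csrp1, Vim, Krt8, Krt18, Krt19, Anxa1, Anxa2 and Anxa3. Both first J1 arrays were above both first knockout-labelled arrays for 30 members (81.1%), against 18.7% of all probe sets.

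In the arrays of suffix r the members were mixed. Flna and Tpm1 were lower and Krt8 and Anxa3 higher at an unadjusted p under 0.05, which is 2 members each way, against 4.4% and 6.42% of all probe sets. The trended prior called 2 members, against 0.829% of all probe sets: Flna fell and Krt8 rose. Both J1 arrays were above both knockout-labelled arrays for 17 members (45.9%), against 18.8% of all probe sets. The reverse held for 7 (18.9%), against 22.1%, namely Acta2, Actn4, Cald1, Zyx, Krt8, Anxa2 and Anxa3. For 6 of these 7, all but Actn4, both knockout-labelled arrays were also below both J1 arrays in the first arrays, a crossing shown by 3.61% of all probe sets. The median of -0.25 ranged from -0.30 to -0.12 when 1 array was left out, with -0.12 without the J1 array of suffix r with LIF and -0.15 without the knockout-labelled one.

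The genotype difference was then compared between the suffixes. In the arrays of suffix r minus the first arrays it had a median of 0.44 over the members and 0.02 over all probe sets. At an unadjusted p under 0.05, 14 members had a genotype difference higher in the arrays of suffix r, against 4.54% of all probe sets, and 0 lower, against 2.94%. The trended prior called 6 of them, Acta2, Cald1, Krt8, Krt18, Anxa2 and Anxa3, against 0.0622% of all probe sets. Krt8 had the largest value, 2.95 ± 0.22 (limma adjusted p = 0.412 in the planned fit). Of the 37 members 17 were lower in the knockout-labelled cells in all 4 array pairs, against 7.78% of all probe sets, among them Tagln, Tpm1, Flna, Krt18, Krt19 and Anxa1.

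**Figure D3:**
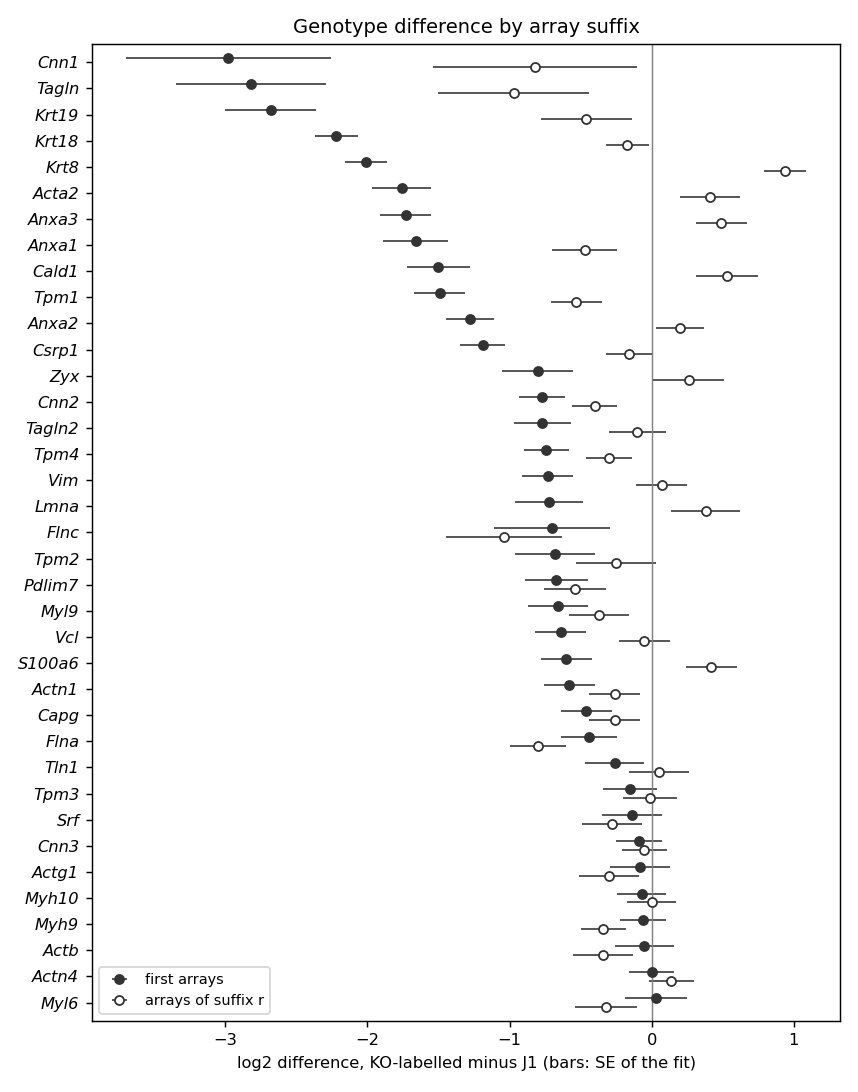
Log2 difference of knockout-labelled minus J1 arrays (x axis) for the 37 genes (y axis), in the first arrays (filled) and in the arrays of suffix r (open), with LIF as a term of the fit; bars are the SE of the fit. In the first arrays 36 genes lie below zero, down to -2.98 for Cnn1, and in the arrays of suffix r 26 do, down to -1.04 for Flnc.

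Over both suffixes, as the labels group the arrays, the knockout-labelled cells were lower by a median of -0.52 with LIF and -0.36 without, against 0.01 and 0.02 over all probe sets. Averaged over LIF the median was -0.47, with 36 of 37 members lower. The trended prior called 0 members in the averaged contrast, against 0.0023% of all probe sets. These medians depended on single arrays. Each group holds 1 first array and 1 array of suffix r. Leaving out either therefore also brings the difference between the suffixes into the contrast. Without the first J1 array with LIF the median with LIF was 0.02, and without the first J1 array lacking LIF the median without LIF was 0.18. Leaving out the J1 array of suffix r moved them to -1.09 and -0.96. Leaving out the first knockout-labelled array gave -0.84 and -0.69, and leaving out that of suffix r gave -0.18 and -0.11. The averaged median ranged from -0.73 to -0.15, with -0.15 and -0.19 when either first J1 array was left out, and within the first arrays it ranged from -0.80 to -0.59.

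Differences between arrays with and without LIF were small over the module when all 8 arrays were used. Without LIF minus with LIF had a median of -0.05 over the members, from -0.69 for Tagln to 0.24 for Myl6, against -0.01 over all probe sets. Leaving out 1 array leaves a group with a single suffix and so adds the difference between the suffixes. That moved the median between -0.32 and 0.23. It was -0.32 and -0.31 without the first J1 array lacking LIF or the J1 array of suffix r with LIF, and 0.23 and 0.21 without the other J1 arrays. Without 1 of the knockout-labelled arrays it lay between -0.18 and 0.08. The members with an unadjusted p under 0.05 numbered 0 in either direction, against 2.47% of all probe sets lower and 1.56% higher. No member had all 4 arrays of 1 condition above all 4 of the other, against 1.33% of probe sets higher with LIF and 1.02% higher without. Vim, Lmna, S100a6, Flnc and Krt18 were lower without LIF in all 4 array pairs, 5 members against 7.8% of all probe sets, and Tpm4 was higher in all 4, 1 member against 7.3%. The differences averaged over genotype were -0.64 ± 0.52 for Lmna, -0.62 ± 0.58 for Vim, -0.52 ± 0.82 for S100a6 and -0.50 ± 0.66 for Flnc. This fit has no suffix term, so its SE and p-values include the difference between the suffixes, and small LIF differences could go unseen. The 4 array pairs ran from -1.07 to -0.29 for Lmna and from -0.76 to -0.40 for Vim. They ran from -0.73 to -0.37 for S100a6 and from -1.46 to -0.06 for Flnc.

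The LIF difference of the knockout-labelled cells minus that of J1, the interaction, had a median of 0.07, with 0 members at an unadjusted p under 0.05 in either direction, against 1.76% and 1.79% of all probe sets. Leaving out 1 array again adds the difference between the suffixes. It moved this median between -0.45 and 0.73. The ends were reached without the J1 array of suffix r or the first J1 array lacking LIF. Without any other array the median lay between -0.34 and 0.63. The largest interaction values were 1.79 ± 1.66 for Cnn1, 0.69 ± 0.67 for Tpm2, -0.53 ± 1.33 for Flnc, 0.49 ± 0.93 for Zyx and 0.45 ± 1.04 for Lmna, each close to or below its SE. That SE also includes the difference between the suffixes.

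Other genes of the actin pathway, listed by role, were set beside the members. No gene of these lists was called in the planned fit, and counts below are at an unadjusted p under 0.05. The shares of all probe sets to read them against are 7.02% lower and 10.2% higher in the arrays of suffix r, and 2.94% lower and 2.47% higher in the knockout-labelled first arrays. Of 36 measured genes of actin polymerization and turnover, 3 were lower in the knockout-labelled first arrays and 0 higher, and 11 were lower and 2 higher in the arrays of suffix r. Their median between the suffixes was -0.04, from -2.24 ± 0.22 for Gsn, gelsolin, which severs filaments, and -1.49 for Vil1, villin, to 0.46 and 0.49 for the formins Diaph3 and Diaph1. Their median lay near that of all probe sets, 0.08, while the 11 lower genes of 36 were a larger share than the 7.02% of all probe sets.

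Of 23 partners at focal adhesions, 10 were lower and 0 higher in the arrays of suffix r, with a median of -0.23. Parva, parvin, an actin-binding partner of integrin-linked kinase, was lowest at -2.17 ± 0.35, and Tgfb1i1, also called Hic-5, was next at -2.03. Tns1 and Pdlim4 were highest, at 0.04 and 0.26.

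Of 28 cofactors and targets of SRF outside the members, 14 were lower and 0 higher in the arrays of suffix r, with a median of -0.60. Fhl2, a LIM protein, and Thbs1, thrombospondin, were lowest at -2.27 and -2.03, and Fosb and Myocd highest at 0.46 and 0.68. In the first arrays 8 of the 28 were lower in the knockout-labelled cells and 0 higher, with a median of -0.47. Of 18 other intermediate filament, lamin, annexin and S100 genes, 4 were lower and 0 higher between the suffixes. Anxa5 was lowest there at -1.55 ± 0.15, followed by Krt20 at -1.44, and Lmnb1 and Des were highest at 0.34 and 0.51. Some listed symbols had no single-symbol probe set, so these lists are not complete.

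Markers of other cell types were read in the same arrays. Fibroblast or feeder genes had a summed intensity of 8288 and 7830 over 14 measured markers in the first J1 arrays and 5686 and 5557 in the first knockout-labelled arrays. In the arrays of suffix r the sum was 4356 and 4283 in J1 and 6459 and 6271 in the knockout-labelled cells. Both first J1 arrays were above the other 6 for 6 of the 14, and 5 of the 14 reached a log2 of 8 in those arrays, against 1 to 3 in the others. Col1a1, a fibrillar collagen, had log2 values of 8.71 and 8.95 in the first J1 arrays and 4.24 to 6.83 elsewhere, while Dcn, Lum and Postn stayed between 2.74 and 7.20 in all arrays, and none of the 14 was at 0. The summed level of these markers was thus highest in the 2 arrays where the members were highest. The sum leans on the brightest marker, which reached a log2 of 12.55. The mean log2 of the list did not single out these arrays. It was 7.14 and 7.37 there, and 7.21 in the knockout-labelled array of suffix r without LIF. The part of these markers in the members' differences was not tested.

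Markers of other lineages were read as well. Trophoblast markers had a mean log2 of 5.63 to 6.77 and endoderm markers 6.50 to 7.29, and smooth and cardiac muscle markers 6.26 to 6.57. Their medians between the suffixes were -0.23 over 8 trophoblast genes, 0.49 over 10 endoderm genes and -0.19 over 12 muscle genes. The 12 embryonic stem cell markers had a median of 0.12 between the suffixes and 0.07 between the genotypes in the first arrays, and for 0 of them were both first J1 arrays above the other 6. In the arrays of suffix r 11 of the 12 read higher. At an unadjusted limma p under 0.05, 3 were higher there, against 10.2% of all probe sets, and 0 lower, against 7.02%. The Gapdh control difference also lay lower in every array of suffix r than in every first array, and the part of RNA quality in the members' differences was not tested.

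**Figure D4:**
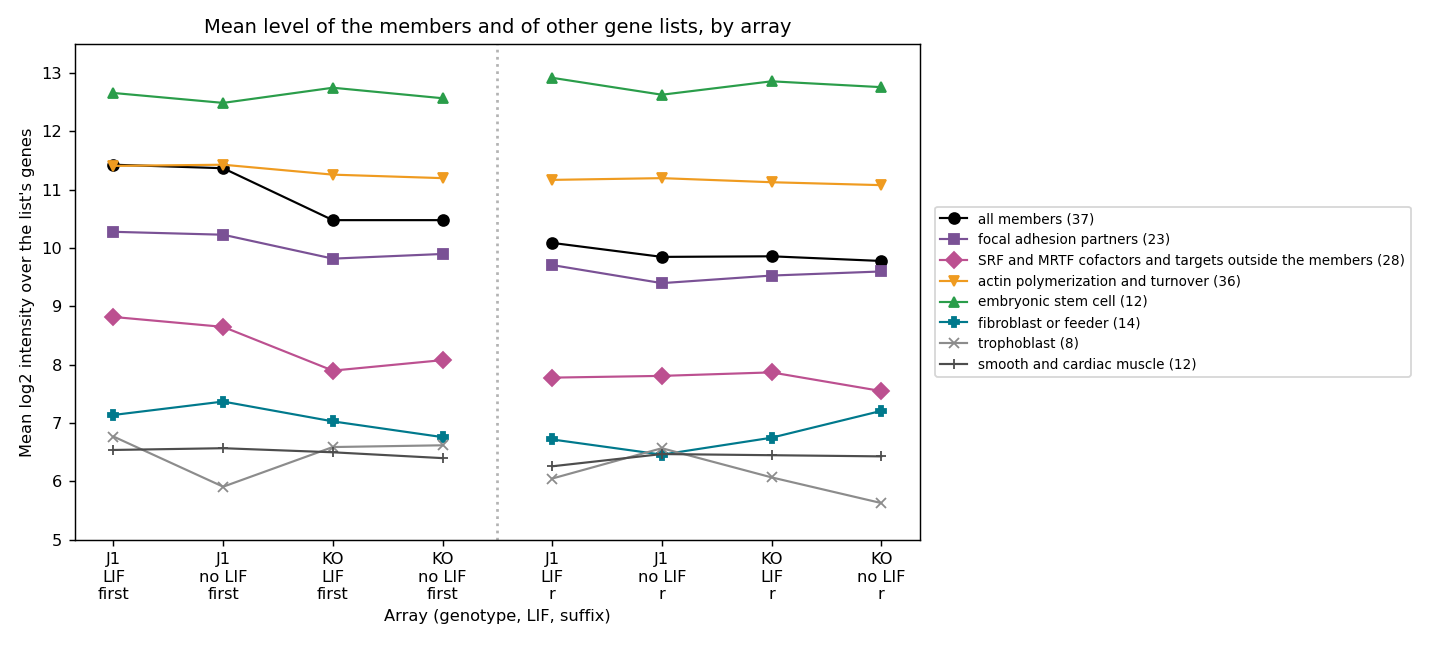
Mean log2 intensity (y axis) of the members and of other gene lists in each of the 8 arrays (x axis, first arrays on the left and arrays of suffix r on the right of the dotted line); the number of genes in each list stands in the legend. The members (black) go from 11.43 in the first J1 array with LIF to 9.78 in the knockout-labelled array of suffix r without LIF, and the embryonic stem cell markers (green) stay between 12.49 and 12.92.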

How the data were processed

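The deposited table holds linear signal intensity per probe set on 8 Affymetrix arrays. GCRMA is the only tool in the submitters' processing notes, which give neither its version nor its role. Every column had a mean of 500 after trimming 2% per side and no log had been taken, so the step that made the values is not known. After 64 control probe sets were left out, 45037 remained, of which 34945 have 1 symbol, 932 several and 9160 none listed. Values were taken to log2 without a pseudocount, and the test covered the 43439 probe sets that reached a log2 of 4 in 2 or more arrays.

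The fits used lmFit and eBayes of limma 3.58.1 (R 4.3.3), either with 1 mean per group (4 residual degrees of freedom) or with 1 mean per genotype and suffix and a LIF term (3). P-values were adjusted by Benjamini-Hochberg over all probe sets. Values are differences ± SE of the fit. With 1 mean per group and no suffix term, that SE includes the difference between the suffixes. With 1 mean per genotype and suffix, it comes from arrays with and without LIF. No detection value was used, so low values hold an unknown share of background, and precision is limited by the number of arrays. The scripts were tested on simulated data. Figures were drawn with matplotlib 3.10.9.

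The members, the other lists and the tests were chosen with earlier results of these data known. The result of 1 other list is not reported here. Values in all 8 arrays are given for 12 members listed by name and for the 5 of largest difference in 6 contrasts. Genes of other lists are named by the 2 highest and 2 lowest in a contrast, and Col1a1, Dcn, Lum, Postn, Myh11, Lmod1, Smtn and Myh6 were named after their values were seen. Alternatives covered the filter, normalization, pseudocount, variance prior, probe set per gene, LIF term, the suffix as a block and each array left out in turn.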

Additional observations from a re-analysis of the deposited data

Results flagged for a closer look

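For 6 members the genotype difference had opposite signs in the 2 kinds of array: both knockout-labelled arrays were below both J1 arrays among the first arrays and above both among the arrays of suffix r. The genotype difference in the arrays of suffix r minus that in the first arrays was 2.95 ± 0.22 for Krt8, a keratin of simple epithelia, 2.21 ± 0.25 for Anxa3, an annexin, and 2.17 ± 0.30 for Acta2, the smooth muscle actin. It was 2.04 ± 0.32 for Cald1, caldesmon, 1.48 ± 0.24 for Anxa2 and 1.05 ± 0.35 for Zyx, zyxin. The genes were picked for this crossing, which 3.61% of all probe sets also showed, so these values are a description with no test. None of the 6 was called for this difference in the planned limma fit. The size or sign in the arrays of suffix r depended on the probe set for several genes. It was 0.94 for the Krt8 probe set used and -0.13 and -0.83 for the other 2. For Cald1 it was 0.53 against 0.09, -0.01, -0.85 and 0.59, for Acta2 0.41 against -1.52 and 0.10 and for Anxa2 0.20 against 0.51 and 0.02. Zyx gave 0.26 and 0.27, and Anxa3 has 1 probe set.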

How the results depend on the processing

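The direction of every median of the members over the genotype contrasts within a suffix and over the contrasts between suffixes was kept under all settings tried. The medians of the group contrasts for genotype, LIF and interaction moved or turned with single arrays left out: from -1.09 to 0.02 for genotype with LIF, -0.96 to 0.18 without LIF, -0.73 to 0.42 for LIF in J1 and -0.26 to 0.30 for LIF in the knockout-labelled cells. That leaves 1 group with a single suffix. These shifts, and those of single genes in the same contrasts, therefore include the difference between the suffixes. Counts of members called moved. In the array of suffix r minus the first array, averaged, 0 became 23 with a mean log2 of at least 7, 6 with a pseudocount of 32, 28 with the trended and robust prior and 4 without the LIF term. In J1 the same settings gave 17 (0.676%), 3 (0.0276%), 24 (2.88%) and 4 (0.0506%). In the knockout-labelled cells the trended and robust prior gave 19 (3.83%). For the genotype in the first arrays a mean log2 of at least 7 gave 2 (0.019%) and the trended and robust prior 15 (0.279%). That prior gave 2 (0.829%) for the genotype in the arrays of suffix r and 6 (0.0622%) for the genotype difference between suffixes. Settings added after the data were seen were a mean log2 of at least 10 and a trended prior alone. They gave 13 (1.49%) and 15 (0.29%) for the genotype in the first arrays, and 4 (6.4%) and 2 (0.898%) in those of suffix r. For the genotype difference between suffixes they gave 8 (1.23%) and 7 (0.0783%). Between the suffixes they gave 15 (22.6%) and 24 (2.82%) in J1 and 11 (26%) and 19 (4.12%) in the knockout-labelled cells. Averaged, they gave 16 (43.9%) and 27 (8.81%). Members below a mean log2 of 10 were not tested under the first of these settings. The cause of these moves was not tested; fewer probe sets were tested under the filters. Single genes reversed. In the arrays of suffix r, Krt8 was -0.01 with all probe sets averaged, as was the interaction of Lmna at -0.05. With each array left out in turn, Cnn1 there ranged from -1.89 to 0.26, the LIF difference of Tagln from -2.14 to 0.76, of S100a6 from -1.16 to 0.12 and of Flnc from -1.08 to 0.08. The interaction ranged from -1.69 to 0.63 for Flnc, from -0.30 to 1.28 for Zyx and from -0.45 to 1.35 for Lmna.

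The suffix was checked as a pairing. Differences of same-suffix arrays from their group means correlated at 0.0496 to 0.198 over 43439 probe sets, with 2 of 6 pairs of groups under 0.1, so it was not taken as a pairing. That check covered all probe sets and not the members alone, of which 29 of 37 read lower in the array of suffix r in all 4 groups. With the suffix as a replicate block, 0 members were called in the group contrasts.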
